A study of Mus musculus with 18 samples.

Results

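The 10 genes described here encode proteins that mark platelets and megakaryocytes, the blood cells that bud off platelets. They are Pf4, Ppbp, Gp9, Gp1ba, Gp1bb, Gp5, Gp6, Itga2b, Itgb3 and Treml1, and all 10 were found by symbol among the 55487 gene identifiers counted in mouse forelimb buds. They were chosen by measured values, because platelet markers leaned higher in mutants at embryonic day 9.5 (E9.5) and lower in mutants at E11.5. The differences at those 2 stages chose the genes, so they are given as a description without a test, and mutants and controls were tested against each other at E10.5 only. Of the 10 genes, 9 stood among the 20118 genes that passed the filter on low counts, and Gp1bb did not. Gp6 passed through few groups, since all 3 libraries lay above the filter's level in 2 of the 6 groups.

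RNA was sequenced from forelimb buds of mouse embryos in 18 libraries, 3 in each of 6 groups. Control embryos were Esco2fl/fl, with both Esco2 alleles flanked by loxP sites, and mutant embryos were Esco2fl/fl;Prrx1-CreTg/0, with the same alleles and 1 Prrx1-Cre transgene. Both genotypes were collected at E9.5, at E10.5 and at E11.5, and the study asked how loss of Esco2, an acetyltransferase needed for sister chromatid cohesion, leads to limb reduction. The Prrx1 promoter of the transgene drives Cre in limb bud mesenchyme, and because controls carried no Cre, effects of Cre and of the deleted alleles cannot be told apart. The labels speak of individual limb buds and do not say which libraries share an embryo or a litter. Each library also carries a code that the labels do not explain. Its first number is shared at E9.5 by control replicate 2 and mutant replicate 1, at E10.5 by replicates 1 and 2 of both genotypes, and at E11.5 by control replicates 2 and 3 and, with another number, by control replicate 1 and mutant replicate 3. Whether the number marks a litter is not known, so a p-value here speaks for the scatter among these libraries alone, which may be technical.

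Megakaryocytes of the mouse embryo arise in the yolk sac and later in the fetal liver, and their platelets reach the limb bud in its blood vessels. On the platelet surface the GPIb-IX-V complex binds von Willebrand factor, GPVI binds collagen, and the integrin αIIbβ3 binds fibrinogen once it is activated. Alpha granules hold the chemokines PF4 and PPBP and are released when platelets are activated. In whole limb buds, fewer cells of this lineage and less RNA per cell cannot be told apart. The labels name no step that removed blood from the tissue.

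Totals per library ran from 35034237 to 56230058 counts. The targeted gene Esco2 was at 28.1 to 33.6 CPM (counts per 1000000 of the TMM-scaled library size) in E10.5 controls and at 18.9 to 22.3 CPM in E10.5 mutants, a log2 change of -0.53 ± 0.14 (SE, adjusted p = 0.0200). The E9.5 change of -0.60 ± 0.14 had an adjusted p of 0.162, and the E11.5 change of -0.26 ± 0.14 one of 0.238. These counts sum all exons, so they check a deletion only weakly. The forelimb markers Prrx1, Prrx2, Tbx5, Twist1, Fgf10, Lmx1b and Msx1 had counts in every library. So did the hindlimb markers Pitx1 and Tbx4, and having counts alone does not set the limb type. Pitx1 and Tbx4 summed to 1.42, 1.87 and 6.07 CPM in E9.5 controls and to 3.66, 13.6 and 2.58 CPM in E9.5 mutants (replicates 1, 2 and 3). A pair of libraries stood apart, namely control E9.5 replicate 1, with counts in 22294 genes against 24125 or more elsewhere, and mutant E10.5 replicate 3, with the highest haemoglobin level of all 18.

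The 10 genes lie on 6 chromosomes of the mm10 build, and the coordinates are those of the deposited files. Ppbp (ENSMUSG00000029372.7, chromosome 5, 90768518 to 90770063) and Pf4 (ENSMUSG00000029373.7, chromosome 5, 90772435 to 90773383) are neighbours on the plus strand with 2371 bases between them. Gp1ba (ENSMUSG00000050675.7, 70639122 to 70642036), Itga2b (ENSMUSG00000034664.13, 102453297 to 102470122) and Itgb3 (ENSMUSG00000020689.4, 104608000 to 104670476) lie apart on chromosome 11. Gp1bb (ENSMUSG00000050761.4, 18620317 to 18622403) and Gp5 (ENSMUSG00000047953.7, 30307685 to 30310779) lie on chromosome 16. Gp9 (ENSMUSG00000030054.4, 87778072 to 87779768) lies on chromosome 6, Gp6 (ENSMUSG00000078810.4, 4363965 to 4397744) on chromosome 7 and Treml1 (ENSMUSG00000023993.7, 48359916 to 48367176) on chromosome 17.

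Megakaryocyte genes are textbook targets of GATA and ETS family transcription factors, so the 250 bases before the RefSeq start of each gene (GRCm38.p6, the assembly of mm10) were searched on both strands. The GATA words searched were AGATAA as well as AGATAG, together with TGATAA as well as TGATAG. The ETS words were CCGGAA as well as CAGGAA. The table of starts held 9 of the 10 genes, and Itgb3 was missing from it. Of these 9 windows, 4 held a GATA word (Gp1ba, Gp1bb, Gp5 and Gp6), against 26.5% of 32851 windows of the same length. An ETS word stood in 4 of 9 (Ppbp, Gp1ba, Itga2b and Treml1), against 35.1% of all windows, and Gp1ba was the 1 gene with both, against 8.52%. No base was shared by a GATA and an ETS word in these 9 windows. A match is only a match of letters and shows no binding.

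The windows of 5 genes are printed to show the range from no match to several, each 5′ to 3′ on the strand of its gene with matched words in capitals (a word on the other strand appears as its reverse complement, such as TTATCT when the word itself is AGATAA). They cover chr5:90772185-90772434 (plus strand) for Pf4, chr5:90768268-90768517 (plus) for Ppbp, chr11:70638872-70639121 (plus) for Gp1ba, chr16:30310782-30311031 (minus) for Gp5 and chr11:102469884-102470133 (minus) for Itga2b.
Pf4: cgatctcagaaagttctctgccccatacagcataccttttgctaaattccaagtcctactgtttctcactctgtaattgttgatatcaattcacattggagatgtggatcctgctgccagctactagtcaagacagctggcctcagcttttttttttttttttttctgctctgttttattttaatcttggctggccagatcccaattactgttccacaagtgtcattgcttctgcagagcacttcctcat
Ppbp: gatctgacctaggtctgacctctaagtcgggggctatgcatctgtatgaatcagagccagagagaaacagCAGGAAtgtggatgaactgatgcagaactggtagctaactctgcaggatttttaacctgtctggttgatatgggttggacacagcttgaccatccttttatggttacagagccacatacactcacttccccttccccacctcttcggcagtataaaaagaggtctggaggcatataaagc
Gp1ba: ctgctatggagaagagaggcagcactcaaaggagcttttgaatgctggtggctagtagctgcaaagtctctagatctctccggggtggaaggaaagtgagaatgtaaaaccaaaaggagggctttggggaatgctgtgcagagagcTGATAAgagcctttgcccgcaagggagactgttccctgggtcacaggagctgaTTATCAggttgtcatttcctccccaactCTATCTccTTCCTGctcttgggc
Gp5: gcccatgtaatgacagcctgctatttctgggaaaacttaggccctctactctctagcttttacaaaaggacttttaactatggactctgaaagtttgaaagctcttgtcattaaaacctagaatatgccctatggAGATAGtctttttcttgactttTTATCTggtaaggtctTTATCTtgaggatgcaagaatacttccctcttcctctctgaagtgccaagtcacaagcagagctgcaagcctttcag
Itga2b: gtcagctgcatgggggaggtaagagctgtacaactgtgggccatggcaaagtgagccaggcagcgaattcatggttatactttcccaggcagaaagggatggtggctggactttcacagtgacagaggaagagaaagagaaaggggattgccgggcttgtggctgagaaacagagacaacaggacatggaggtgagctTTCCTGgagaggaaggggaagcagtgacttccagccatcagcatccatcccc
The Gp1ba window held 3 GATA words and 1 ETS word, and the Gp5 window held 3 GATA words. The Ppbp and Itga2b windows held 1 ETS word each. The Pf4 window held none of the words searched.

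The 9 measurable genes shared 1 broad course. Their mean level was lowest in E9.5 controls and highest in E11.5 controls for each of the 9, with the mutant groups in between. E9.5 mutants leaned above their controls with a median log2 change of 1.62, and E11.5 mutants leaned below theirs with a median of -1.06. Over all 20118 genes the median was -0.01 at E9.5 and 0.01 at E11.5. At E10.5, the stage the choice did not use, the median was 0.59 (0.02 over all genes), and 0 of the 9 passed an adjusted p of 0.05 in edgeR (quasi-likelihood test, Benjamini-Hochberg), where 13.9% of all genes did, although all 9 changes were positive. DESeq2 also called 0 of them, and 2 had an unadjusted p under 0.05 in edgeR, as did 28% of all genes. Among the 4 E10.5 libraries whose codes share a first number, a comparison added after seeing the data, the median was 0.27 and 0 of the 9 passed. When the 6 groups are put in order of level, 39 of the 45 pairs of neighbouring groups overlapped in their libraries, and 6 did not. The same count was not made over all genes, and the order uses the stages that chose the members. It is therefore a description only.

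**Figure D1:**
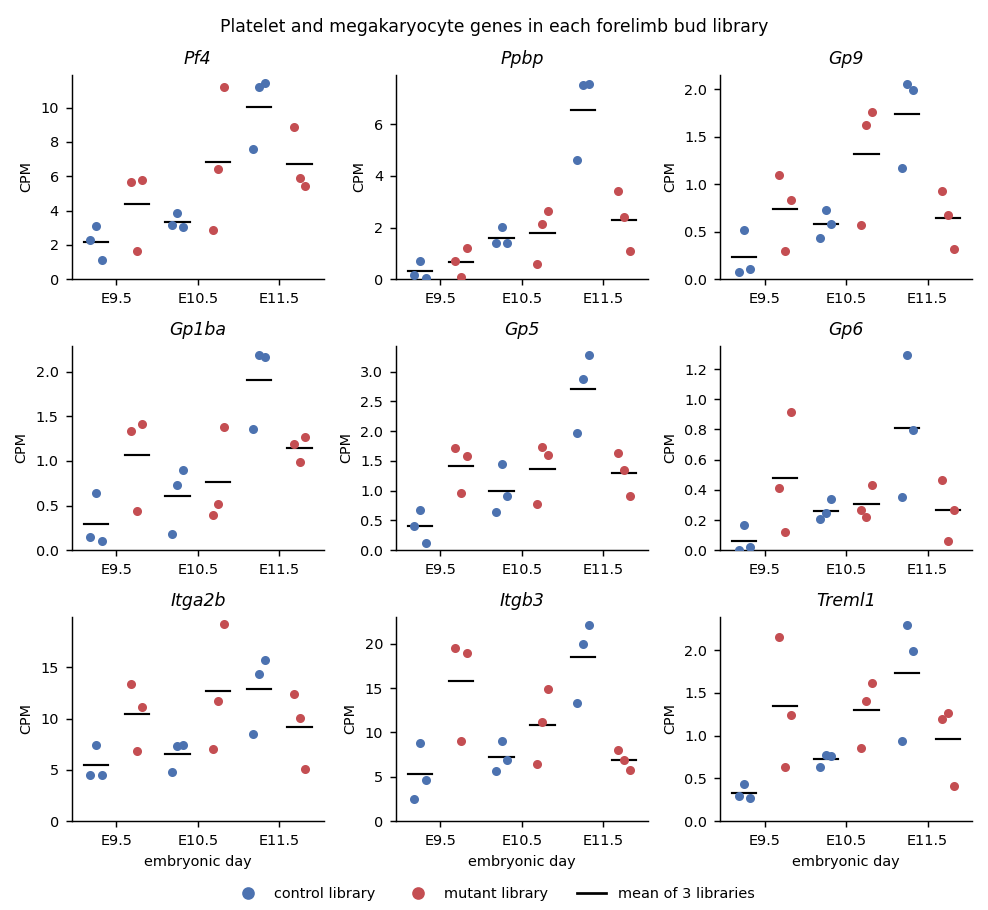
Level in CPM of the 9 measurable genes in each of 18 forelimb bud libraries, by embryonic day, with controls in blue, mutants in red and the mean of 3 libraries as a black bar; each axis starts at 0. E11.5 controls have the highest mean in every panel, and at E9.5 the highest control (replicate 2) and the lowest mutant (replicate 2) lie close together or cross in every panel.

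Of the granule chemokines, Pf4 encodes platelet factor 4, which binds heparin. At E9.5 it was at 2.27, 3.10 and 1.11 CPM in controls, against 5.68, 1.67 and 5.77 CPM in mutants (replicates 1, 2 and 3 in that order here and below). At E10.5 controls were at 3.16, 3.86 and 3.05 CPM and mutants at 2.88, 6.44 and 11.2 CPM. At E11.5 controls were at 7.57, 11.2 and 11.4 CPM and mutants at 8.89, 5.91 and 5.41 CPM. The groups overlapped at every stage, with mutant replicate 2 below all but 1 control at E9.5 and mutant replicate 3 far above the rest at E10.5. The E10.5 log2 change was 1.03 ± 0.47 (adjusted p = 0.161). Leaving out both libraries that stood apart, a check chosen after seeing the data, gave 0.47. As a description, the difference was 1.01 ± 0.48 at E9.5 and -0.58 ± 0.46 at E11.5.

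Ppbp encodes the precursor of CXCL7, a chemokine that attracts neutrophils. It was barely detected in E9.5 controls, at 0.175, 0.696 and 0.0617 CPM, with 0.691, 0.0794 and 1.19 CPM in E9.5 mutants. At E10.5 it was at 1.39, 2.02 and 1.40 CPM in controls and at 0.572, 2.13 and 2.62 CPM in mutants. E11.5 controls reached 4.61, 7.51 and 7.56 CPM, and mutants 3.43, 2.41 and 1.08 CPM. All E11.5 mutants were therefore below all E11.5 controls, while the groups overlapped at both earlier stages. In controls the mean went from 0.311 ± 0.339 CPM (SD, n = 3) at E9.5 through 1.602 ± 0.359 to 6.56 ± 1.68 CPM at E11.5. The tested E10.5 change was 0.15 ± 0.70 (adjusted p = 0.915), and it was -0.25 without mutant E10.5 replicate 3 and -0.34 among the 4 libraries whose codes share a first number. The description at the other stages was 0.99 ± 0.81 at E9.5 and -1.51 ± 0.69 at E11.5.

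These neighbouring genes were also set against each other within a library. Blood cells other than platelets can express Pf4, and their part in this share was not tested. In controls the Ppbp share of Ppbp plus Pf4 counts was 7.14%, 18.4% and 5.26% at E9.5, 30.6%, 34.3% and 31.4% at E10.5, and 37.9%, 40.1% and 39.8% at E11.5. Mutants were at 10.8%, 4.55% and 17.1%, then at 16.6%, 24.8% and 19.0%, then at 27.9%, 28.9% and 16.6%. Controls and mutants overlapped at E9.5, and every mutant was below every control at E10.5 and at E11.5. E11.5 is a stage that chose both genes, so the separation there is a description and no repeat of the E10.5 one. The E10.5 difference was -12.0 percentage points (exact permutation test, two-sided p = 0.1, the smallest that 3 against 3 libraries allow). Among 7 such ratios of these genes the other p-values were 0.2 to 0.9, and adjusted over the 7 this one was 0.7. The ratio was singled out after its values were seen. Exact 95% binomial intervals, which cover counting error only, ran from 24.6% to 40.4% over the E10.5 controls and from 11.1% to 29.4% over the E10.5 mutants.

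**Figure D2:**
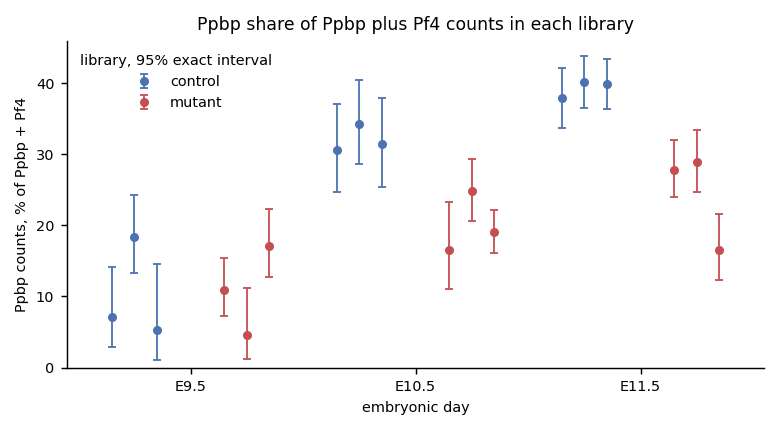
Ppbp counts as a percentage of Ppbp plus Pf4 counts in each library by embryonic day, controls in blue and mutants in red, with exact 95% binomial intervals for counting error. E10.5 mutants (16.6% to 24.8%) lie below E10.5 controls (30.6% to 34.3%), and at E9.5 the groups overlap.

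The GPIb-IX-V complex joins the products of Gp1ba, Gp1bb, Gp9 and Gp5. Gp1ba encodes the chain that carries the von Willebrand factor site. It was at 0.150, 0.641 and 0.103 CPM in E9.5 controls, where counts per library ran from 5 to 35, against 1.33, 0.437 and 1.41 CPM in E9.5 mutants. At E10.5 it was at 0.185, 0.731 and 0.897 CPM in controls and at 0.396, 0.521 and 1.37 CPM in mutants. At E11.5 controls were at 1.36, 2.19 and 2.16 CPM and mutants at 1.19, 0.982 and 1.27 CPM. Controls and mutants overlapped at the first 2 stages and not at E11.5. Its E10.5 change of 0.34 ± 0.65 (adjusted p = 0.778) turned to -0.40 without mutant E10.5 replicate 3 and to -0.09 without control E10.5 replicate 1. The untested differences were 1.78 ± 0.68 at E9.5 and -0.73 ± 0.62 at E11.5.

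Gp9, which encodes the small subunit GPIX, was at 0.0748, 0.513 and 0.103 CPM in E9.5 controls, against 1.10, 0.298 and 0.832 CPM in E9.5 mutants. At E10.5 controls were at 0.431, 0.731 and 0.578 CPM and mutants at 0.572, 1.63 and 1.76 CPM. At E11.5 controls were at 1.17, 2.06 and 1.99 CPM and mutants at 0.925, 0.674 and 0.318 CPM. As with Gp1ba, the E11.5 mutants were all below the controls and the earlier groups overlapped. The E10.5 change was 1.19 ± 0.61 (adjusted p = 0.215), with mutant replicate 1 inside the range of the controls. Differences that chose the gene were 1.62 ± 0.66 at E9.5 and -1.44 ± 0.61 at E11.5.

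Gp5 encodes GPV, the subunit that thrombin cleaves. In E9.5 controls it was at 0.399, 0.678 and 0.123 CPM and in E9.5 mutants at 1.72, 0.953 and 1.58 CPM. E10.5 controls were at 0.636, 1.44 and 0.917 CPM, and E10.5 mutants at 0.769, 1.74 and 1.5995 CPM. E11.5 controls were at 1.97, 2.87 and 3.28 CPM, and E11.5 mutants at 1.63, 1.35 and 0.905 CPM. Gp5 was thus separated by group at E9.5, mixed at E10.5 and separated the other way at E11.5. Mutant means were nearly level over the 3 stages, at 1.42 ± 0.407, 1.37 ± 0.523 and 1.30 ± 0.366 CPM, while control means went from 0.400 ± 0.277 through 0.998 ± 0.409 to 2.71 ± 0.672 CPM. The E10.5 change was 0.46 ± 0.46 (adjusted p = 0.562), and the untested differences were 1.80 ± 0.50 at E9.5 and -1.06 ± 0.46 at E11.5.

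Gp1bb, the partner chain disulphide-linked to GPIbα, could not be measured. It had 6 counts in all 18 libraries together, in 4 libraries, with at most 2 in any of them. Of its 2087 exon bases 92.9% are also exon of Sept5 or the predicted gene Gm49601 on the same strand, which leaves 149 bases of its own. Read pairs that fall on more than 1 gene are not counted by default. Sept5, which encodes a septin, had 140 to 592 counts per library. No level or change of Gp1bb is therefore given.

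Gp6 encodes GPVI, the collagen receptor of platelets, and was the sparsest of the measurable genes, with 275 counts in all. E9.5 controls had 0, 9 and 1 counts and E9.5 mutants 16, 6 and 33, or 0.410, 0.119 and 0.915 CPM in mutants. In the control library without a count, 3 counts would stand for 0.0748 CPM. At E10.5 controls were at 0.205, 0.244 and 0.339 CPM and mutants at 0.264, 0.217 and 0.431 CPM. In E11.5 controls it had 0.351, 1.29 and 0.795 CPM, against 0.463, 0.0578 and 0.269 CPM in mutants. Gp6 overlapped between groups at each stage. Its E10.5 change was 0.21 ± 0.84 (adjusted p = 0.898), a standard error too wide at this depth to give a sign, and it was -0.13 without mutant E10.5 replicate 3. The fitted differences of 2.78 ± 0.96 at E9.5 and -1.64 ± 0.83 at E11.5 rest on these few counts, and the first was 5.09 without control E9.5 replicate 2.

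Itga2b and Itgb3 encode the 2 chains of the fibrinogen receptor αIIbβ3, of which Itga2b also marks early blood progenitors and Itgb3 also pairs with the αV chain in other cells. Itga2b was at 4.54, 7.44 and 4.47 CPM in E9.5 controls, against 13.4, 6.85 and 11.2 CPM in E9.5 mutants. At E10.5 controls were at 4.84, 7.31 and 7.43 CPM and mutants at 7.06, 11.7 and 19.2 CPM. At E11.5 controls were at 8.55, 14.3 and 15.7 CPM and mutants at 12.4, 10.1 and 5.14 CPM. Itga2b overlapped between groups throughout, by 1 mutant library at E10.5. Its E10.5 change of 0.96 ± 0.38 had the smallest adjusted p of the 9 genes at 0.106 and passed at 0.0440 without mutant E10.5 replicate 1 (log2 change 1.24). It came to 0.51 when both libraries that stood apart were dropped. At the choosing stages it differed by 0.93 ± 0.38 and -0.48 ± 0.38.

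Itgb3 had a wider swing than its partner. E9.5 controls were at 2.49, 8.80 and 4.59 CPM and E9.5 mutants at 19.5, 9.03 and 19.0 CPM. E10.5 controls were at 5.66, 9.04 and 6.86 CPM and E10.5 mutants at 6.46, 11.1 and 14.9 CPM. E11.5 controls were at 13.3, 20 and 22.1 CPM and E11.5 mutants at 8.01, 6.88 and 5.77 CPM. Mutants lay above controls at E9.5, by a small gap between replicates numbered 2, and below them at E11.5. The control mean went from 5.29 ± 3.21 to 18.5 ± 4.57 CPM between E9.5 and E11.5, and the mutant mean from 15.8 ± 5.91 to 6.89 ± 1.12 CPM. Its E10.5 change was 0.59 ± 0.39 (adjusted p = 0.344), and the description gave 1.57 ± 0.40 at E9.5 and -1.42 ± 0.40 at E11.5.

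Treml1 encodes TLT-1, a receptor of the alpha-granule membrane that comes to the surface on activation. E9.5 controls were at 0.299, 0.440 and 0.267 CPM and E9.5 mutants at 2.15, 0.635 and 1.25 CPM. E10.5 controls were at 0.636, 0.776 and 0.757 CPM and E10.5 mutants at 0.857, 1.41 and 1.62 CPM. E11.5 controls were at 0.937, 2.29 and 1.99 CPM and E11.5 mutants at 1.19, 1.27 and 0.416 CPM. Treml1 was the 1 gene of the 9 whose mutants were all above their controls at E10.5, where 23.0% of all genes showed that pattern, and 0 of the 9 had all mutants below, as 23.1% of all genes did. The E10.5 change was 0.84 ± 0.47 (adjusted p = 0.259), with 1.98 ± 0.50 at E9.5 and -0.85 ± 0.47 at E11.5 as a description.

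Per kilobase of exon, the members differed widely in level. In E11.5 controls Pf4 was highest at 13.9 ± 3.00 CPM per kb and Ppbp followed at 6.06 ± 1.56. Itgb3 was at 3.13 ± 0.774 CPM per kb and Itga2b at 2.36 ± 0.697. The subunits of the GPIb-IX-V complex lay lower, with Gp9 at 1.97 ± 0.559, Gp5 at 1.23 ± 0.306 and Gp1ba at 0.700 ± 0.173 CPM per kb, and Treml1 was at 1.24 ± 0.507. Gp6 was lowest of the 9 at 0.138 ± 0.0797 CPM per kb.

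In counts of genes, 3 of the 9 (Gp5, Itgb3 and Treml1) had every E9.5 mutant above every E9.5 control, where 5.26% of all genes did, and 5 (Ppbp, Gp9, Gp1ba, Gp5 and Itgb3) had every E11.5 mutant below every E11.5 control, where 20.7% did. The reverse was seen for 0 of the 9 at either stage, against 3.61% of all genes at E9.5 and 19.8% at E11.5. These counts come from the contrasts that chose the genes. Without control E9.5 replicate 2 the E9.5 median was 2.45 and without control E9.5 replicate 1 it was 1.24. The E10.5 median was 0.33 without mutant E10.5 replicate 3. As a description, the control median was 1.09 from E9.5 to E10.5 and 1.58 from E10.5 to E11.5, positive for each of the 9 genes at both steps. These comparisons share control libraries with the mutant contrasts.

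**Figure D3:**
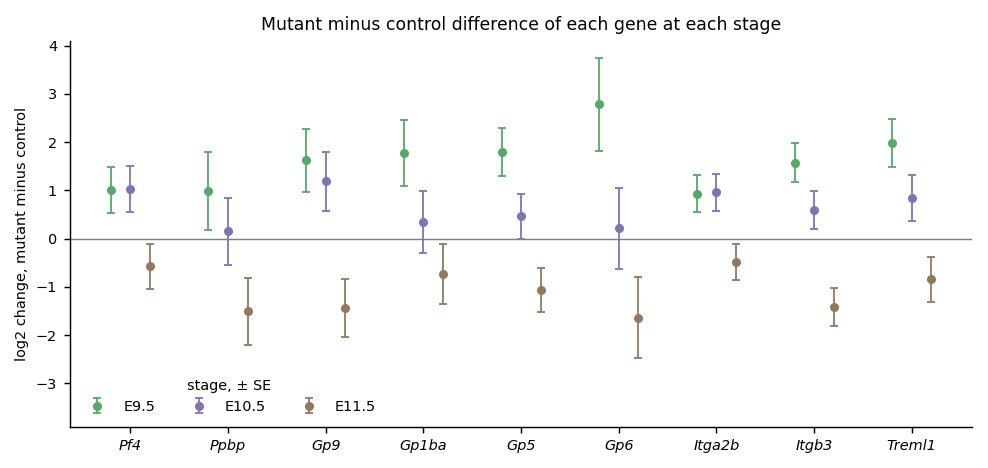
Log2 change of mutants minus controls ± SE for the 9 measurable genes at E9.5 (green), E10.5 (purple) and E11.5 (brown). E9.5 values lie between 0.93 and 2.78 and E11.5 values between -1.64 and -0.48, the stages that chose the genes, while the tested E10.5 values lie between 0.15 and 1.19.

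The genes also moved together from library to library within a group. Among E9.5 libraries control replicate 3 was lowest for 6 of the 9 genes and control replicate 1 for the other 3, and the highest library was mutant replicate 1 for 5 genes and mutant replicate 3 for 4. At E10.5 mutant replicate 3 was highest for 8 genes and control replicate 1 lowest for 7. At E11.5 control replicates 2 and 3 held the highest pair of levels for all 9 genes, and mutant replicate 3 was lowest for 7. Over the 18 libraries the 36 pairs of genes had a median Pearson correlation of log2 CPM of 0.82 (0.59 to 0.92). With group means taken off, the median was 0.75 (0.39 to 0.93). The pairs share libraries and depth, so these values are a description.

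Platelets and red cells are both carried in blood, so the members were set beside haemoglobin. Summed over the 10 genes, E9.5 controls were at 10.4, 22.5 and 10.8 CPM and E9.5 mutants at 46.0, 20.1 and 43.1 CPM. The 7 haemoglobin genes summed to 4690, 2366 and 4276 CPM in these controls and to 4321, 4118 and 3889 CPM in these mutants. At E9.5 the library with least haemoglobin, control replicate 2, was thus the control with most platelet RNA. At E10.5 the platelet sum was 17.1, 26.1 and 22.2 CPM in controls and 19.8, 36.9 and 54.7 CPM in mutants, beside haemoglobin of 2891, 5979 and 3604 CPM in controls and 6188, 9630 and 19391 CPM in mutants. Mutant replicate 3 was highest in both sums of that stage. At E11.5 the platelet sum was 39.8, 63.7 and 67.0 CPM in controls and 38.2, 29.6 and 20.6 CPM in mutants, beside haemoglobin of 3423, 4750 and 4846 CPM and of 8909, 6053 and 3839 CPM. Within a shared first number of the codes, the platelet sum was 22.5 CPM in a control and 46.0 CPM in a mutant at E9.5, and 39.8 CPM in a control and 20.6 CPM in a mutant at E11.5, with 1 library on each side.

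Per 1000 CPM of haemoglobin, the platelet sum was 2.22, 9.50 and 2.54 in E9.5 controls and 10.7, 4.88 and 11.1 in E9.5 mutants. In E10.5 controls it was 5.93, 4.37 and 6.17 and in E10.5 mutants 3.205, 3.83 and 2.82. In E11.5 controls it was 11.6, 13.4 and 13.8 and in E11.5 mutants 4.29, 4.89 and 5.36. Relative to haemoglobin, mutants were therefore below controls at E10.5 as well as at E11.5, with no overlap, although the E10.5 platelet genes themselves leaned above the controls. At E10.5 haemoglobin alone also did not overlap, at 2891 to 5979 CPM in controls and 6188 to 19391 CPM in mutants. Division by it lowers any level more in mutants there, so the E10.5 ratio is no result about the platelet genes alone. E11.5 is a stage that chose the genes. At E9.5 the groups overlapped. These ratios were looked at after the data were seen and are given without a test.

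**Figure D4:**
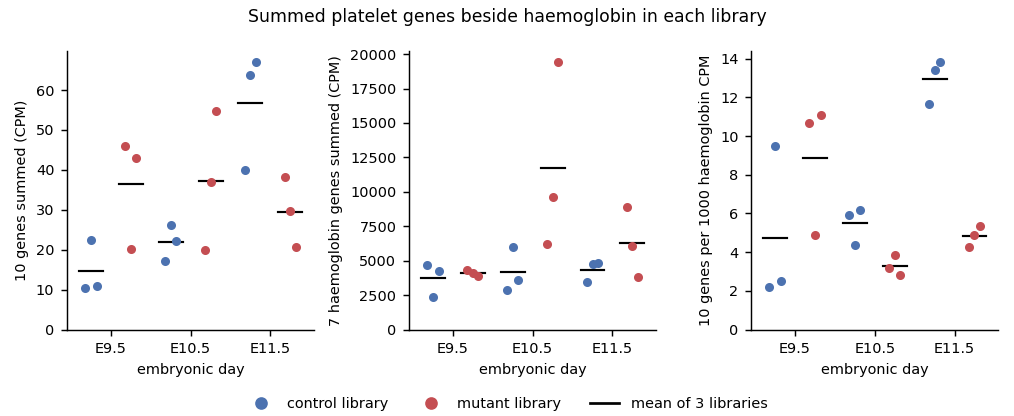
Sum of the 10 platelet and megakaryocyte genes (left, CPM), sum of 7 haemoglobin genes (middle, CPM) and the first per 1000 CPM of the second (right) in each library, controls in blue, mutants in red and means of 3 libraries as black bars. In the right panel E10.5 mutants (2.82 to 3.83) lie below E10.5 controls (4.37 to 6.17), and E11.5 mutants (4.29 to 5.36) below E11.5 controls (11.6 to 13.8). In the middle panel all E10.5 mutants lie above all E10.5 controls.

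The rest of the lineage was read from 42 further genes in 4 lists, of receptors, granule and secreted proteins, signalling and cytoskeletal proteins, and transcription factors. At E9.5 edgeR called 0 of the 42 (0.184% of all genes, 0.179% higher and 0.00497% lower). An unadjusted p under 0.05 was reached by 11 of the 42 and by 9.92% of all genes. A positive change was seen in 38 of the 42 (median 0.51, against -0.01 over all genes). E9.5 is a stage that chose the members, and some of the 42 may have been in the platelet list then used. A lean in that direction is therefore no independent support. DESeq2 called 4, namely Ptgs1, Tubb1, Vwf and Plek, and the fit on the authors' log2 FPKM called 1, Ptgs1. The share of all genes that these fits called was not counted, and the 0.184% is a background for edgeR only. Tubb1, which encodes the β1-tubulin of the platelet's marginal band, was at 0.249, 1.25 and 0.329 CPM in E9.5 controls, against 4.43, 1.43 and 4.103 CPM in mutants. All E9.5 mutants were above the controls, with a log2 change of 2.41 ± 0.58 (adjusted p = 0.164), and the call passed without control E9.5 replicate 2, as did that of Plek. Ptgs1, which encodes cyclooxygenase 1, changed by 0.91 ± 0.20 (adjusted p = 0.0849). Of the genes with a negative change, Vamp8, which encodes a SNARE of granule release, was at -0.29 ± 0.23 (adjusted p = 0.608), and Cd84, a receptor gene of platelets and other blood cells, had no count in any E9.5 mutant and 1 in a control.

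At E10.5, 13 of the 42 genes passed, 12 higher and 1 lower in mutants, where 7.30% of all genes were called higher and 6.63% lower, and the median was 0.69. Of the 10 transcription factor genes 7 rose and 1 fell. Zfpm1 (FOG1, the partner of GATA1) rose by 1.13 ± 0.22 (adjusted p = 0.00247), Lyl1 by 1.33 ± 0.28 (adjusted p = 0.00380), Tal1 by 1.33 ± 0.30 (adjusted p = 0.00727) and Gata2 by 0.69 ± 0.16 (adjusted p = 0.00856). Gata1, Nfe2 and Gfi1b, named after their values were seen, also rose, by 1.40, 1.28 and 1.64. Most of these factors also act in red cell precursors. Gata1 was at 3.92, 6.98 and 4.46 CPM in E10.5 controls and at 7.83, 11.1 and 21.6 CPM in mutants, with mutant replicate 3 again highest.

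Fli1, an ETS factor gene of megakaryocytes that endothelium also expresses, was the 1 gene that fell at E10.5. It was at 63.6, 70.3 and 60.2 CPM in controls and at 33.4, 28.4 and 19.7 CPM in mutants (-1.25 ± 0.17, adjusted p = 0.000139). Every mutant was far below every control, and mutant replicate 3, which was highest for most platelet genes, was the lowest for Fli1. At E11.5 Fli1 was at 65.6, 48.6 and 45.3 CPM in controls and at 28.7, 27.3 and 25.3 CPM in mutants (-0.97 ± 0.17, adjusted p = 0.000971).

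Among receptors at E10.5, Fcer1g, which encodes the signalling chain that GPVI needs and that macrophages share, rose from 0.923, 1.53 and 1.61 CPM to 3.23, 4.38 and 3.999 CPM (1.51 ± 0.37, adjusted p = 0.0119). It was the 1 receptor of 12 to pass. Of the 12 signalling and cytoskeletal genes 4 rose, namely Plcg2, which encodes phospholipase Cγ2 downstream of GPVI (0.77 ± 0.13, adjusted p = 0.000907), Ptgs1 (0.61 ± 0.19, adjusted p = 0.0390), Alox12, which encodes 12-lipoxygenase (1.03 ± 0.32, adjusted p = 0.0420), and the adaptor gene Lat (0.97 ± 0.32, adjusted p = 0.0486). The calls of Ptgs1 and Lat held in 0 of the 6 fits without 1 library of the stage, that of Alox12 in 1, and those of Gata1, Nfe2 and Gfi1b in 3. The call of Tal1 was lost without mutant E10.5 replicate 3 (adjusted p = 0.0642) and that of Fcer1g without control E10.5 replicate 1 (adjusted p = 0.0690). Leaving out control E10.5 replicate 1 gave 6 calls, leaving out mutant E10.5 replicate 3 also gave 6, and leaving out control E10.5 replicate 3 gave 8. Among the 4 libraries whose codes share a first number, 2 genes passed, Plcg2 (0.59, adjusted p = 0.0430) and Fli1 (-1.12, adjusted p = 0.00252). How many of all genes each of these reduced fits called was not counted. Of the 8 granule and secreted protein genes edgeR called 0, and 2 had an unadjusted p under 0.05 (28% of all genes did).

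At E11.5, 7 of the 42 passed, 4 higher and 3 lower, where 17.5% of all genes did (8.02% higher and 9.52% lower), and the median was 0.01. Fcer1g (1.29 ± 0.36, adjusted p = 0.0210), Cd84 (1.66 ± 0.41, adjusted p = 0.0102), Ptgs1 (0.84 ± 0.19, adjusted p = 0.00528) and Plcg2 (0.82 ± 0.13, adjusted p = 0.000542) rose. All 4 are also expressed in myeloid cells. Besides Fli1, the falls were those of Gnaz, which encodes the platelet G protein subunit Gαz (-1.31 ± 0.27, adjusted p = 0.00307), and Pear1, a receptor gene of platelets and endothelium (-0.39 ± 0.11, adjusted p = 0.0216). The calls of Fcer1g and Cd84 held in 4 of the 6 fits without 1 library of the stage and that of Pear1 in 2. A fit without mutant E11.5 replicate 1 called 4 genes, a fit of this stage alone 12, and a fit without both outlying libraries 11. How many of all genes these fits called was not counted. Tubb1 was at 3.02, 5.24 and 6.76 CPM in E11.5 controls, against 3.02, 2.20 and 1.71 CPM in mutants. The mutant effect differed between E9.5 and E11.5 for 7 of the 42 genes by the interaction term, 1 upward and 6 downward. Over all genes 6.42% passed (2.81% upward and 3.61% downward). These 2 stages chose the members, and some of the 42 genes may have been in the platelet list then used. The count is therefore no independent support for the members' pattern.

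**Figure D5:**
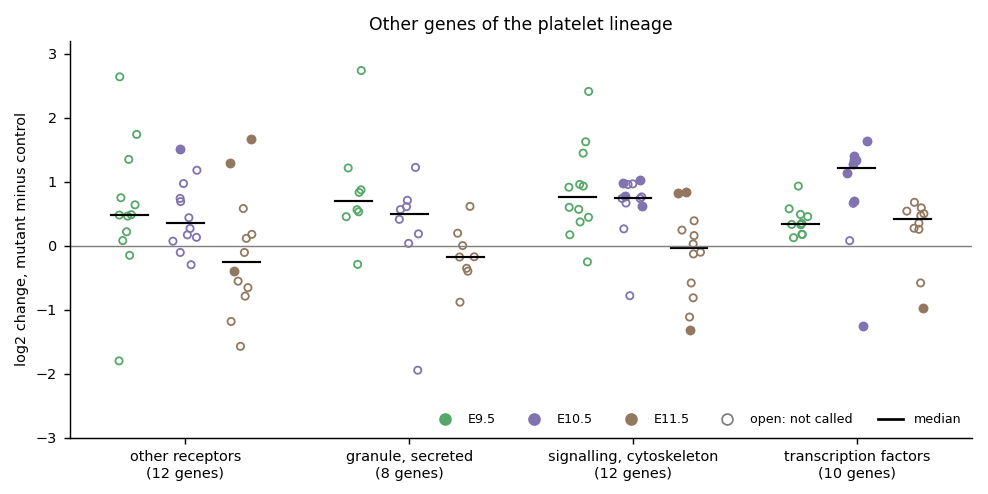
Log2 change of mutants minus controls for 42 further genes of the platelet lineage in 4 lists at E9.5 (green), E10.5 (purple) and E11.5 (brown); filled points passed an adjusted p of 0.05, open points did not, and black bars are list medians. Filled points number 0 at E9.5, 13 at E10.5 and 7 at E11.5, and at E10.5 they gather among the transcription factors.

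Across control stages the further lineage genes did not follow a single course. From E9.5 to E10.5, 10 of the 42 rose and 4 fell (27.5% of all genes passed, 15.0% upward and 12.5% downward). The rises included the receptor genes Cd84 (5.18 ± 0.79, adjusted p = 0.000127), Pear1 (1.70 ± 0.11, adjusted p = 3.84e-08) and P2ry12 (3.39 ± 0.79, adjusted p = 0.00290), the granule genes Vwf (2.26 ± 0.24, adjusted p = 3.99e-06), F13a1 and Mmrn1, and Tubb1 (1.65 ± 0.58, adjusted p = 0.0415). The falls were those of Clec1b, which encodes the podoplanin receptor CLEC-2 (-1.23 ± 0.26, adjusted p = 0.00262), the thromboxane receptor gene Tbxa2r, Plcg2 and Zfpm1. Clec1b was at 13.1, 6.65 and 6.40 CPM in E9.5 controls, at 4.24, 3.41 and 3.49 CPM at E10.5 and at 2.11, 2.11 and 1.76 CPM at E11.5, so this receptor gene went down while the 9 members went up. From E10.5 to E11.5, 3 rose and 2 fell (9.49% of all genes passed, 6.60% upward and 2.89% downward), with Runx1, a factor gene needed for platelet production, up by 2.38 ± 0.40 (adjusted p = 0.00146), P2ry12 and Rgs18 up, and Clec1b and Plcg2 down.

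Pf4 and Ppbp stand in a cluster of chemokine genes, of which Cxcl5, Cxcl3, Cxcl15 and Cxcl2 had too few counts to be tested. Cxcl1 had 0 counts in the 3 E10.5 controls and 3, 14 and 15 in the mutants, a call at adjusted p = 0.0103. With 3 counts over the control group as a floor, the 32 pooled mutant counts came to 10.95-fold. This figure leaves out the spread between libraries and is no strict lower bound.

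Markers of other cell types moved in some of the same comparisons, and their part in the platelet results was not tested. Over all genes, edgeR called 0.184% at E9.5, 7.30% higher and 6.63% lower at E10.5, and 8.02% higher and 9.52% lower at E11.5. An unadjusted p under 0.05 was reached by 9.92% of all genes at E9.5 and by 30.5% at E11.5. The 14 erythroid genes summed to 3012 to 6230 CPM in E10.5 controls and to 6432 to 20233 CPM in E10.5 mutants, and 9 of the 14 rose and 0 fell, with the erythropoietin receptor gene Epor up by 1.52 ± 0.35 (adjusted p = 0.00828). At E9.5 their sums were 2473 to 4788 CPM in controls and 4075 to 4500 CPM in mutants, and at E11.5 they were 3579 to 5076 and 4011 to 9317 CPM, with 0 of 14 called at either stage by edgeR and 0 at an unadjusted p under 0.05. The 13 macrophage genes summed to 27.7 to 37.6 CPM in E10.5 controls and 48.5 to 84.9 CPM in mutants (5 rose), and to 55.8 to 67.7 and 125 to 252 CPM at E11.5 (9 rose). The complement gene C1qb rose by 1.78 ± 0.43 at E10.5 (adjusted p = 0.0109) and by 2.16 ± 0.43 at E11.5 (adjusted p = 0.00241). Relative to E11.5 controls, E11.5 mutants thus had higher macrophage sums while the platelet genes leaned lower. At E9.5 the macrophage sums were 5.25 to 6.29 CPM in controls and 5.26 to 9.84 CPM in mutants, with up to 5 of the 13 genes at 0 in a library. The 12 endothelial genes summed to 509 to 562 CPM in E9.5 controls and 573 to 665 CPM in mutants (0 called, 2 at an unadjusted p under 0.05). Endothelial sums were 450 to 508 and 525 to 627 CPM at E10.5 (5 rose) and 419 to 457 and 384 to 481 CPM at E11.5, where Emcn rose and Erg fell. No gene of the erythroid or endothelial lists was at 0 in any library. The 7 forelimb mesenchyme genes summed to 1496 to 1829 CPM in E9.5 controls and 1453 to 1569 CPM in mutants (0 called). At E10.5 their sums were 1346 to 1400 CPM in controls and 748 to 973 CPM in mutants (3 fell, 0 rose). Sums at E11.5 were 1410 to 1516 CPM in controls and 664 to 904 CPM in mutants (4 fell, 0 rose).

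Likeness to the members was measured as the Pearson correlation, over 18 libraries, of log2 CPM with the mean of the 9 members, among 13331 genes. Tubb1 was first (r = 0.97), followed by Rab27b, which encodes a GTPase of granule secretion (0.90), the urea transporter gene Slc14a1 (0.90), Plek, which encodes the platelet protein pleckstrin (0.89), and Fermt3, which encodes the integrin activator kindlin-3 (0.86). Agbl2, Ezh1, Rbl2, Btk and Orai2 completed the first 10, at 0.84 to 0.86. With group means taken off, Tubb1 was again first (0.95), then Ikbke (0.95), Fermt3 (0.93), Cyp4f17 (0.90), Parp9 (0.90), Cd82, Slc8a3, Ankrd29, Srgn and Tatdn3 (0.84 to 0.86). Fli1 was at 0.23 over 18 libraries. The 7 haemoglobin genes were at 0.55 (Hbb-bt) or less. Rab27b, outside every list, was at 0.574, 1.61 and 1.09 CPM in E9.5 controls, against 2.61, 2.04 and 3.38 CPM in E9.5 mutants. All mutants were higher, as for 5.26% of all genes, with an adjusted p of 0.204 in edgeR (log2 change 1.28 ± 0.32). Rab27b was named for its likeness to members chosen on this contrast, so its E9.5 values are no independent support. Its change was 0.24 ± 0.31 at E10.5 and -0.49 ± 0.31 at E11.5.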

How the data were processed

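The counts in the deposited files were made by the authors with featureCounts 1.6.4 as reverse-stranded read pairs over the exons of GENCODE M22 genes on mm10, per the file headers. Read trimming with cutadapt and alignment with STAR are named in the submitters' processing notes, with settings not given in the sources used. A table of log2 FPKM deposited by the authors holds 14692 genes, 8 of the 10 members among them, and served as an alternative only. In R 4.3.3, edgeR 4.0.16 was used on the counts as deposited. filterByExpr (at least 10 counts, scaled to library size) kept 20118 genes, TMM scaled the libraries, and 1 robust quasi-likelihood model held all 18 libraries in 6 groups. Adjusted p-values are by Benjamini-Hochberg over all tested genes of a contrast, with a threshold of 0.05. "Rose" and "fell" are used of listed genes past it, and ± is SE for log2 changes and SD of 3 libraries for levels. The fit was tested on simulated data with the same dispersion for every gene and changes placed only in genes above a minimum level. That test does not cover genes as low as most of the members. DESeq2 1.42.0, limma 3.58.1 (voom, and on log2 FPKM), other scaling and filters, and leaving out each library were tried as alternatives.

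Symbols were matched by identifier for 99.83% of identifiers. The members and lists were chosen with earlier results of these data known, and some of the further lineage genes may have been in the platelet list then used. Of those lists and the marker lists, the rule names up to 4 called genes per list and direction, and where none passed the 2 smallest p-values each way. Names outside it were chosen after their values were seen. Likeness used a prior count of 1 and genes with a mean log2 CPM of at least -1. Some genes that the rule names are not reported here.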

Additional observations from a re-analysis of the deposited data

Results flagged for a closer look

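The mutant effect differed between E9.5 and E11.5 for 7 of the 42 further lineage genes (interaction term in edgeR, adjusted p of 0.05 or less, where 6.42% of all genes passed). Gnaz went from 0.57 at E9.5 to -1.31 at E11.5, a difference of -1.88 ± 0.39 (adjusted p = 0.0107), and Fli1 from 0.12 to -0.97, a difference of -1.10 ± 0.24 (adjusted p = 0.0150). Both calls held in all 12 fits without 1 library of these stages. Tubb1 went from 2.41 to -1.12, a difference of -3.52 ± 0.79 (adjusted p = 0.0159), which was lost without control E11.5 replicate 3 (adjusted p = 0.0511) and held in the other 11 fits. F2rl2, which encodes the thrombin receptor PAR3, went from 1.74 to -1.57, a difference of -3.31 ± 0.96 (adjusted p = 0.0490, held in 3 of 12 fits). Rasgrp2, which encodes the Rap1 activator CalDAG-GEFI, went from 0.44 to -0.58, a difference of -1.03 ± 0.30 (adjusted p = 0.0493, held in 3 fits). Pear1 went from 0.22 to -0.39, a difference of -0.61 ± 0.16 (adjusted p = 0.0325, held in 5 fits). Plcg2 ran the other way, from 0.17 to 0.82, a difference of 0.65 ± 0.19 (adjusted p = 0.0468, held in 3 fits). The members were chosen on these same 2 contrasts, so these differences are no independent support for their pattern.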

How the results depend on the processing

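The median change of the 9 members kept its sign in every alternative run, and ranged over fits without 1 library of the stage from 1.24 to 2.45 at E9.5, 0.33 to 0.86 at E10.5 and -1.26 to -0.85 at E11.5. At E10.5 the count of members called was 0 to 1 in these fits and 0 under the other alternatives run. Signs that turned were all at E10.5: Ppbp was at -0.074 with limma-voom, -0.082 on the authors' log2 FPKM, -0.25 without mutant E10.5 replicate 3 and -0.25 without both libraries that stood apart; Gp1ba was at -0.09 without control E10.5 replicate 1, -0.40 without mutant E10.5 replicate 3 and -0.40 without both; Gp6 was at -0.13 and -0.14 in the last 2 of these. Among the 4 E10.5 libraries whose codes share a first number, Ppbp was at -0.34 and 2 further lineage genes were called. Over fits without 1 library of the stage these E10.5 changes reached 0.57 for Ppbp, 0.75 for Gp1ba and 0.44 for Gp6. With the replicate block Ppbp was at -0.044, the member medians were 1.78, 0.54 and -1.06, and 0, 10 and 6 further lineage genes were called. With group means taken off, same-numbered control and mutant libraries correlated at 0.18, 0.12 and 0.07 at E9.5. These correlations were 0.09, 0.06 and -0.003 at E10.5 and -0.15, 0.11 and -0.06 at E11.5. The highest of any control and mutant pair of a stage was 0.26. It was between control E11.5 replicate 1 and mutant E11.5 replicate 3, whose codes share a first number. Not every library correlated best with its own number, and the numbers were not taken as pairs.

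Of the 42 further lineage genes, DESeq2 called 4 at E9.5 and the fit on log2 FPKM 1, and fits without 1 library called 0 to 2 at E9.5, 6 to 11 at E10.5 and 4 to 7 at E11.5. Each stage fitted alone gave 12 at E11.5, and leaving out both libraries that stood apart gave 11. The share of all genes called was not counted under any alternative, so these counts have no background beside them. The cause of these shifts was not tested. Low counts limit Gp6, and overlap with other genes limits Gp1bb.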
